A study of Mus musculus with 36 samples.

Results

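The difference between the highest and the lowest dose of tube-shaped titanium dioxide nanoparticles was measured in mouse lung at day 28. Its members were the 4 mice (5 arrays) labelled 162 µg and the 4 mice (4 arrays) labelled 18 µg at that day, 8 of the 29 mice and 9 of the 36 arrays in all. All were female C57BL/6 mice, 5 to 7 weeks old at the start, that received 1 intratracheal instillation of particles in 40 µl. The labels name no transgene or deletion. The control mice (0 µg, 3 at day 28) are labelled as dosed with no particles, their vehicle not being given in the sources used here, and 4 further mice received 54 µg. Lung RNA was labelled with Cy5 and hybridised against a reference RNA pooled from mouse cell lines in Cy3, so each value below is a log2 ratio of lung over reference. One mouse, replicate 1 at 162 µg, has arrays titled day 1 and a time label of day 28, and is counted at day 28. Replicate numbers only name mice.

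Inhaled or instilled poorly soluble particles are taken up by alveolar macrophages and can remain in the lung for weeks. Macrophages and epithelium that meet them release chemokines, which draw in neutrophils and monocytes, and acute phase proteins such as serum amyloid A. Type I interferon acts through transcription factors such as IRF9 on genes whose promoters carry interferon-stimulated response elements, and their products, such as the 2'-5' oligoadenylate synthetases, restrict viruses.

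Between 49.1% and 62.1% of probes were well above background in Cy5 on the 9 arrays. Surfactant and other alveolar type II markers marked the tissue as lung: 15 of 15 were above background in each group. Mice at 162 µg correlated across genes at r = 0.953 to 0.978 (6 pairs, median 0.97) and mice at 18 µg at 0.835 to 0.964 (6 pairs, median 0.889). Pairs between the doses gave 0.811 to 0.975 (16 pairs, median 0.939), a median above that within 18 µg. The 2 arrays of replicate 1 at 162 µg gave 0.967. These are correlations across genes, which are not independent replicates. One mouse stood apart in skeletal muscle RNA. Replicate 1 at 18 µg had a mean log2 Cy5 intensity of 14.75 over a skeletal muscle list, against 7.02 to 7.64 in the other 7 mice, and none of the 162 µg mice was like it. For the reported genes named by rule (see processing), each call lost without this mouse is given below with its adjusted p in that fit. For other members of the gene lists no such p is given.

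Of 23244 genes tested, 236 differed between the doses (limma, Benjamini-Hochberg adjusted p under 0.05, 1.02% of the genes). Higher levels at 162 µg made up 232 of these calls (0.998%) and lower levels 4 (0.0172%). The difference was at least 1.5-fold for 201 genes and at least 2-fold for 101. The median difference over all genes was 0.03 on the log2 scale. In 229 of the 236 genes the groups did not overlap, while over all genes 4.38% had every 162 µg mouse above every 18 µg mouse and 1.57% had the reverse. Without replicate 1 at 18 µg, 138 genes were called, 136 of them higher, and 129 of the 138 were among the 236. Without replicate 2 at 162 µg the count was 149, with the mouse of conflicting labels moved to day 1 it was 154, and in a fit of only these groups 71. In whole lung, more cells of a type and more RNA per cell cannot be told apart.

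Genes of the interferon response rose together. Of 23 tested members of an interferon response list 20 were called higher and 0 lower, with a median log2 difference of 1.36. Without the muscle-bearing mouse 16 were called and the median was 1.27. GAAA, any 2 bases and GAAA again form the core of the interferon-stimulated response element. The promoter windows of 4 rising genes with this motif are shown, and that of Ly6f, also a rising gene, whose window lacks it. Each line gives the 250 bases before the start site from RefSeq (GRCm38.p6), with matches in capitals:
Isg15, chr4:156200819-156201068, minus strand: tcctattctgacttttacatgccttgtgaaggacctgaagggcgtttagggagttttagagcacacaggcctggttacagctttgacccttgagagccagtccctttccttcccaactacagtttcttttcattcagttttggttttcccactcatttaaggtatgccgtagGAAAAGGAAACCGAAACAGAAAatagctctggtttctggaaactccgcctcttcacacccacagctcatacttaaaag
Oas1a, chr5:120907526-120907775, minus strand: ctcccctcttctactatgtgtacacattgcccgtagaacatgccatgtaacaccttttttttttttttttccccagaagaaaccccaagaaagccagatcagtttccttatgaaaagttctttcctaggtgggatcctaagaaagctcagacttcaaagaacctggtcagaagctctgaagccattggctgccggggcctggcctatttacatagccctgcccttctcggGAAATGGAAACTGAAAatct
Cxcl10, chr5:92348890-92349139, minus strand: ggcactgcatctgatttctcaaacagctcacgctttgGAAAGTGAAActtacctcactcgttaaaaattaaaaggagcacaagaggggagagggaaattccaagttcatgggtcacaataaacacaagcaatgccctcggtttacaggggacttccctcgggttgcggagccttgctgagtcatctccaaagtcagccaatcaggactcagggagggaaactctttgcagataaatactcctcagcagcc
Saa3, chr7:46715677-46715926, minus strand: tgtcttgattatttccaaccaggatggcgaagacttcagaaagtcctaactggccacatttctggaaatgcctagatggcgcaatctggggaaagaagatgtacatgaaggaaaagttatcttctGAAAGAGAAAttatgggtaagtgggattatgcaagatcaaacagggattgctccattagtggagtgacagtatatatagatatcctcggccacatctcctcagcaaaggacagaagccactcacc
Ly6f, chr15:75268171-75268420, plus strand: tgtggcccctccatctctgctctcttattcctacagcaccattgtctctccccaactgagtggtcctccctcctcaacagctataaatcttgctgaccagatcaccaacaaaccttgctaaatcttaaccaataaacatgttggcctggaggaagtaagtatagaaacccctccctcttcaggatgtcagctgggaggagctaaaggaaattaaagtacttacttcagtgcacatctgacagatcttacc

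Searched on both strands in windows of 300 bases (250 before to 50 after the start), this core was found 3 times in Isg15 and 2 times in Oas1a, with matches that overlap one another, and once each in Cxcl10 and Saa3. It was found 0 times in the windows of Irf7, Oasl1, Acod1 and Lcn2, which rose as well. Of the 20 rising interferon genes 17 had a window in the table, and 12 of these held a match (70.6%), against 3.99% of all 27025 genes and 3.44% of all 32851 windows. For all 189 rising genes with a symbol only 76.2% had a window, under the minimum of 80%, so the share over them is void. A match is a description of letters in this window and shows neither binding nor cause.

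Of 8 tested members of the oligoadenylate synthetase family, some of which make the activator of RNase L, 6 rose. Oas1a stood at 1.66, 2.34, 2.25 and 2.14 in the 162 µg mice and at -0.29, -0.47, -0.40 and -0.79 in the 18 µg mice (replicates 1 to 4 in each). The groups were far apart, with no overlap and a difference of 2.59 (SE 0.29, 6-fold, limma adjusted p = 2.16e-05). Oas2 rose by 1.96 (adjusted p = 9.1e-05) and Oasl1 by 1.94 (SE 0.21, adjusted p = 1.09e-05). Irf7, the transcription factor that amplifies type I interferon, was 0.64, 1.68, 1.57 and 0.98 at 162 µg and -1.72, -0.87, -1.09 and -0.99 at 18 µg. Every 162 µg mouse lay above every 18 µg mouse, by 2.38 on average (SE 0.30, adjusted p = 9.1e-05). Isg15, a ubiquitin-like modifier, was 0.47, 1.82, 1.92 and 0.68 at 162 µg against -1.30, -1.18, -0.27 and -0.72. Its 162 µg mice fell into a higher and a lower pair, and the difference was 2.09 (SE 0.39, adjusted p = 0.00492). Ifi27l2a, another interferon-inducible gene, rose by 2.33 with a wide error (SE 0.57, adjusted p = 0.0413). Its call was lost without any 1 of 7 of the 8 mice (adjusted p = 0.137 without the muscle-bearing mouse).

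Other members of the list moved less. Ifit1, Ifi44, Usp18, Rsad2 and Zbp1 rose by 1.52 to 1.75. The receptors of viral RNA Ddx58 and Ifih1 rose by 0.77 and 0.83. Stat2 rose by 1.21 (adjusted p = 0.000358), whereas Iigp1 was 0.90 higher (adjusted p = 0.0983) and Gbp2 0.26 higher (adjusted p = 0.511), neither of which passed. The list mean per mouse was 1.20 to 1.81 at 162 µg and 0.05 to 0.40 at 18 µg, and the lowest value was that of the muscle-bearing mouse. Without it the list median was 1.27, as given above, and with muscle and squamous list means as covariates it was also 1.27. The part of its muscle RNA was not tested further.

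**Figure D1:**
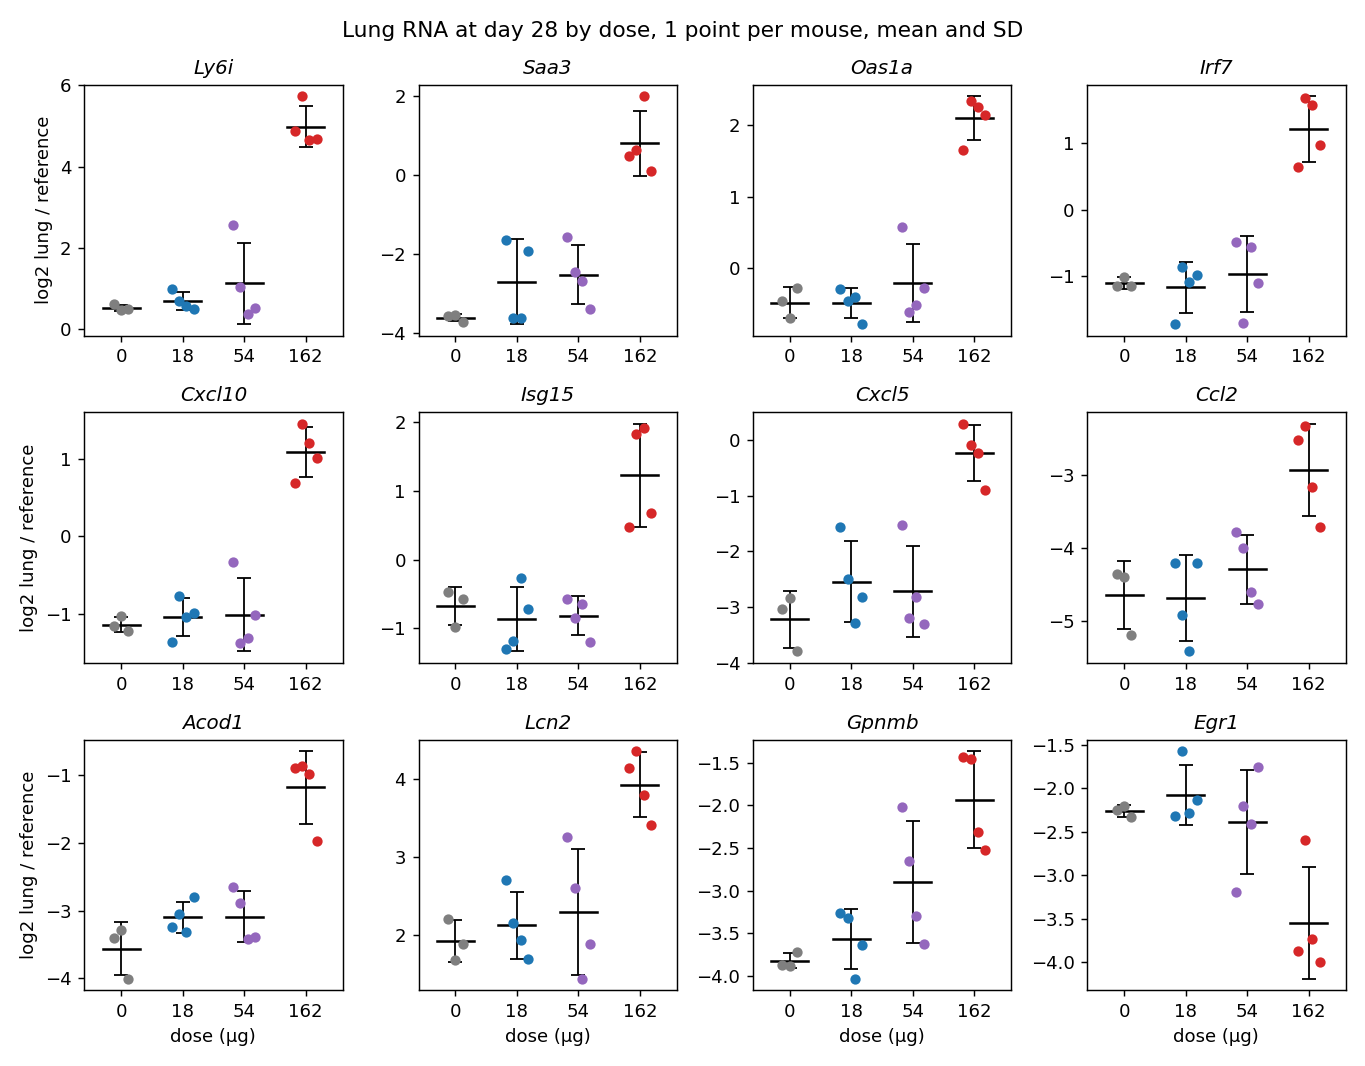
Log2 ratio of lung over reference RNA (vertical axes, 1 scale per gene) at day 28 against dose in µg, 1 point per mouse, with the mean and SD of each group. In the panels of Oas1a, Irf7, Cxcl10 and Isg15 the 4 mice at 162 µg lie above all 4 mice at 18 µg, and Egr1 shows the opposite order.

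The largest rises were those of Ly6i and Ly6f, of the Ly6 family of surface antigens, in which 3 of 13 tested genes rose and the median was 0.23. Ly6i was 4.89, 5.73, 4.65 and 4.68 at 162 µg and 0.99, 0.70, 0.57 and 0.49 at 18 µg. The gap between the groups was wider than the spread within either, at 4.30 (SE 0.38, 19.6-fold, adjusted p = 1.0e-06). Ly6f rose by 3.72 (SE 0.39, 13.2-fold, adjusted p = 1.09e-05). The family holds closely related sequences, so a probe may take up RNA of more than 1 gene.

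Acute phase genes were fewer. Saa3, a serum amyloid A made locally by macrophages and epithelium, was 0.48, 0.64, 2.00 and 0.10 at 162 µg. At 18 µg it was -1.63, -3.62, -3.63 and -1.91, so these mice formed a higher and a lower pair, both below every 162 µg mouse. The difference was 3.51 (SE 0.57, 11.4-fold, adjusted p = 0.00135). Lcn2, whose product binds bacterial siderophores, was 4.14, 4.35, 3.79 and 3.41 against 2.71, 2.16, 1.94 and 1.70, and rose by 1.80 (SE 0.29, adjusted p = 0.0014). Saa1 rose by 1.64 (SE 0.38, adjusted p = 0.0282), and its near-identical copy Saa2, above background on 2 of 5 arrays at 162 µg and 0 of 4 at 18 µg, was 0.39 higher (adjusted p = 0.522). Saa1 was not called without any 1 of 5 mice, the muscle-bearing one (adjusted p = 0.0583) among them. Of 19 acute phase genes tested 3 rose and 0 fell (median 0.20).

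Some chemokine genes rose. Ccl2, the main monocyte chemoattractant, was -2.52, -2.32, -3.16 and -3.71 at 162 µg and -4.21, -4.92, -5.41 and -4.20 at 18 µg, a rise of 1.76 (SE 0.35, adjusted p = 0.00907). Its neighbour Ccl7 rose by 1.97 (SE 0.38, adjusted p = 0.00627) and Ccl12 by 1.05 (adjusted p = 0.0492). Ccl12 passed in only 7 of 25 alternatives and was lost without any 1 of 7 mice (adjusted p = 0.0658 without the muscle-bearing one), and Ccl2 was lost without replicate 2 at 162 µg (adjusted p = 0.0549). Cxcl5, a neutrophil attractant of epithelium, was 0.29, -0.08, -0.24 and -0.90 against -1.56, -2.50, -3.29 and -2.82, without overlap, and rose by 2.31 (SE 0.44, adjusted p = 0.00564). Cxcl10, which draws T cells and is interferon-inducible, rose by 2.14 (SE 0.34, adjusted p = 0.00107). In all, 3 of 15 CC chemokines and 2 of 12 CXC chemokines rose and 0 fell (medians 0.44 and 0.20). Ccl8 was 1.18 higher (adjusted p = 0.366), with the muscle-bearing mouse at 3.66 amid values of 1.55 to 4.06 at 162 µg, and Ccl17 and Cxcl13 were lower by 0.05 and 0.66 on average without passing (adjusted p = 0.97 and 0.847). Ccl17 turned to 0.18 higher with median centring and Cxcl13 to 0.11 higher without replicate 4 at 18 µg.

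Of 18 neutrophil markers tested 0 were called and the median difference was -0.10, while the receptor Cxcr1, the 1 call of 13 chemokine receptors, rose by 1.15 (SE 0.22, adjusted p = 0.00675). Among cytokines Csf2, the growth factor GM-CSF of alveolar macrophages, was 1.89, 2.17, 2.00 and 1.90 at 162 µg and 0.79, 1.09, 1.01 and 0.47 at 18 µg. The 162 µg values were tightly grouped and 1.16 higher (SE 0.23, adjusted p = 0.00905); it was the 1 call among 13 cytokines.

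Acod1, which makes itaconate in activated macrophages, was -0.89, -0.87, -0.97 and -1.98 at 162 µg and -3.24, -3.05, -3.32 and -2.80 at 18 µg, with a difference of 1.92 (SE 0.29, adjusted p = 0.00075). Genes of lipid-laden phagocytes gave 2 calls among 22 (median 0.47). They were Gpnmb, a lysosomal glycoprotein, with a rise of 1.63 (SE 0.26, adjusted p = 0.00108), and the lipid receptor Trem2, with a rise of 1.57 (SE 0.30, adjusted p = 0.0063). In a fit of only the groups compared neither was called. Trem2 was also lost with the mouse of conflicting labels moved to day 1. Spp1 was 0.77 higher and just missed (adjusted p = 0.0529), and Mmp12 was 0.56 higher (adjusted p = 0.112). Lysosomal genes rose in part: 5 of 24 were called higher and 0 lower (median 0.34), among them the proteases Ctss (1.17), Ctsc (1.09) and Ctsz (0.62). Ctss was not called without replicate 2 at 162 µg (adjusted p = 0.0644). With median centring 1 of the 24 was called. Without the muscle-bearing mouse 2 were, Ctss (adjusted p = 0.0449) and Ctsz (0.024), so Ctsc was not.

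Markers of monocytes and interstitial macrophages had 3 calls of 16 (median 0.52): Ly6i, Ms4a7 (1.48, adjusted p = 0.00921) and the macrophage glycoprotein Cd68 (0.76, adjusted p = 0.0194). Without the muscle-bearing mouse Cd68 was not called (adjusted p = 0.0552), nor without replicate 2 at 162 µg (0.107) or replicate 3 at 18 µg (0.0591), and Ms4a7 was lost without replicate 2 at 162 µg (adjusted p = 0.0568). The list mean was 2.42 to 2.76 in the 162 µg mice and 1.70 to 1.86 in the 18 µg mice. Alveolar macrophage markers had 2 calls of 17, the sialoadhesin Siglec1 (1.36, adjusted p = 0.000551) and Cd200r4 (0.91, adjusted p = 0.00164). Another Siglec1 probe, well above background on 4 of the 5 arrays at 162 µg, gave 0.30. With the scanner software's log ratio neither gene was called. Chil3 (0.05) and Ear2 (-0.19) did not pass. Itgax was 0.49 higher (adjusted p = 0.213). Alternative activation genes had 0 calls of 12: Arg1 (-0.24) and Retnla (-0.25) were not called.

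Antigen presentation by MHC class I gave 5 calls of 11 (median 0.72): H2-K1 (1.19, adjusted p = 0.00158), B2m, its light chain (1.01), the transactivator Nlrc5 (0.81), the peptide transporter Tap1 (0.87) and the immunoproteasome subunit Psmb8 (0.72). H2-K1 was 3.81, 4.04, 3.43 and 3.61 at 162 µg and 1.86, 2.68, 2.75 and 2.84 at 18 µg, where the lowest value again was that of the muscle-bearing mouse. Without this mouse 1 of the 11 was called, H2-K1 (adjusted p = 0.00639), so Tap1 and Psmb8 were not. Without replicate 2 at 162 µg also 1 was called, and in a fit of only the groups compared 0. B2m (adjusted p = 0.0733) and Nlrc5 (0.121) were among those lost without the muscle-bearing mouse, and another Nlrc5 probe gave 0.18. Class I genes share sequence, so their probes may not be specific. Class II and dendritic cell genes had 1 call of 18, the costimulator Cd86 (0.59, adjusted p = 0.029), which was lost without any 1 of 6 mice (0.128 without the muscle-bearing one).

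T cell genes had 3 calls of 17 (median 0.23): Tnfrsf4 (0.87, adjusted p = 0.000644), Il2ra (0.59, adjusted p = 0.00627) and Pdcd1 (0.93, adjusted p = 0.0207). Tnfrsf4, the receptor OX40, was 2.13, 2.12, 1.76 and 1.47 at 162 µg against 0.98 to 1.02 at 18 µg. Pdcd1 overlapped between the groups and was lost without any 1 of 5 mice (adjusted p = 0.0942 without the muscle-bearing one). Complement genes C4b (0.76) and Cfb (0.91), the pattern receptors Tlr2 (0.83) and Tlr7 (0.66) and the Fc receptor Fcgr3 (0.82) rose, as 2 of 19, 2 of 18 and 1 of 15 tested members of the complement, pattern receptor and scavenger receptor lists, but C3 (0.79) and Il1b (0.66) did not pass (adjusted p = 0.267 and 0.497). Of 25 alternatives Tlr7 passed in 6 and Tlr2 in 9, and another Tlr7 probe gave 0.38. Without the muscle-bearing mouse the adjusted p was 0.0695 for C4b, 0.145 for Tlr2, 0.249 for Tlr7 and 0.176 for Fcgr3, and Cfb was lost without any 1 of 3 other mice (at most 0.0816). B cell and NK cell markers had 0 calls of 18 and 0 of 13.

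**Figure D2:**
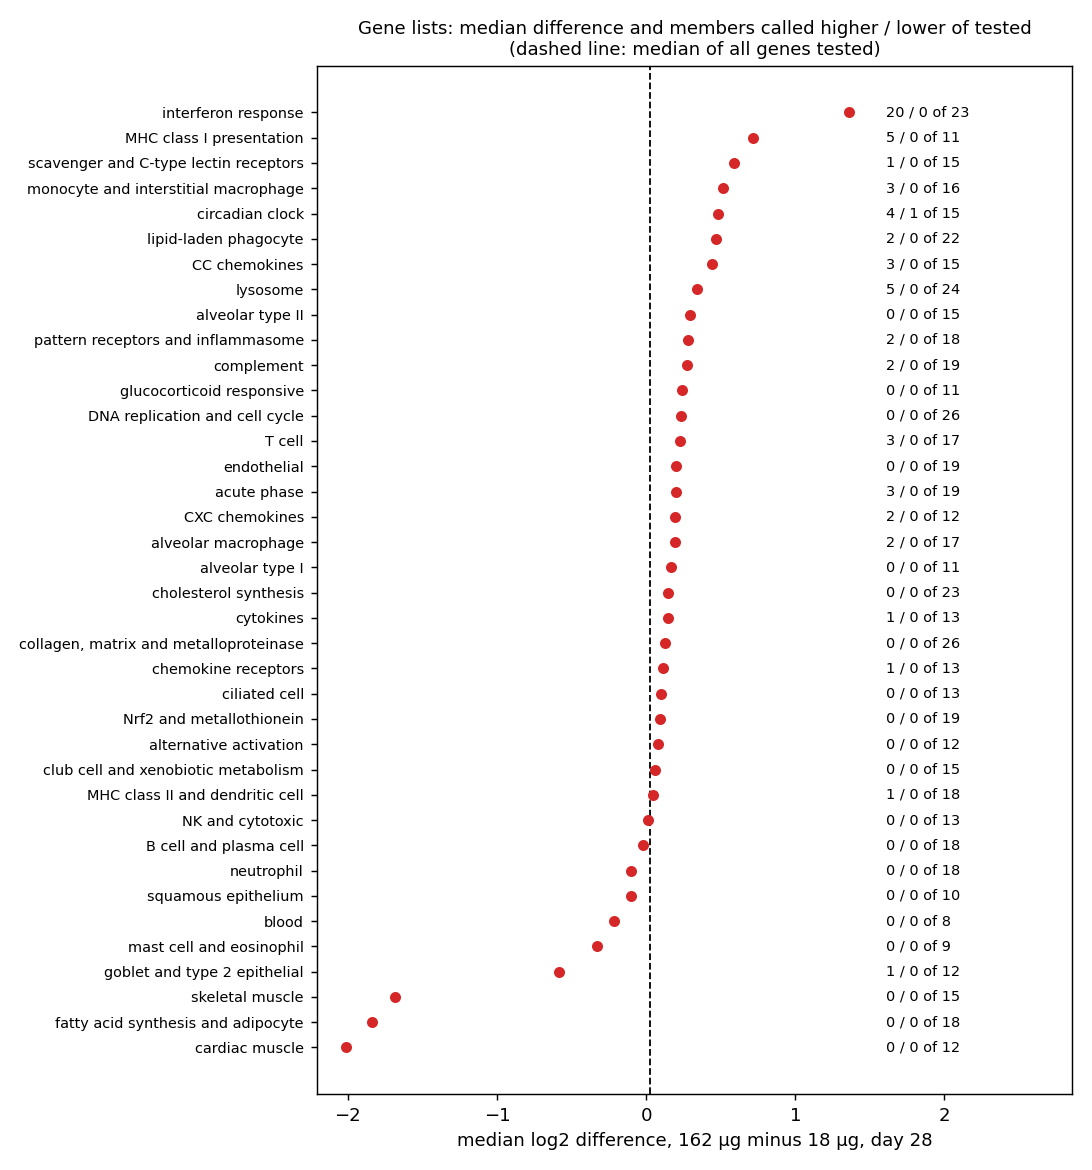
Median log2 difference between 162 µg and 18 µg at day 28 for 38 gene lists (points), ordered by size, with the members called higher and lower of those tested written at the right and the median of all genes as a dashed line. The interferon response list lies at 1.36 with 20 of 23 called, and the cardiac muscle, adipocyte and skeletal muscle lists lie lowest with 0 calls.

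Slc26a4, the anion exchanger pendrin of airway epithelium, was the 1 call of 12 goblet and type 2 epithelial genes. It was 5.62, 5.90, 5.50 and 4.79 at 162 µg and 4.87, 2.36, 2.23 and 2.36 at 18 µg. The muscle-bearing mouse lay above the lowest 162 µg mouse, so the groups overlapped, and the rise of 2.50 (SE 0.55, adjusted p = 0.021) passed in 16 of 25 alternatives. It was lost without any 1 of 6 mice (adjusted p at most 0.0843), but not without the muscle-bearing one (0.00244). Markers of club (0 of 15), ciliated (0 of 13), alveolar type I (0 of 11), alveolar type II (0 of 15) and endothelial cells (0 of 19) were not called, nor were collagen and matrix genes (0 of 26), Nrf2 and metallothionein genes (0 of 19, Hmox1 at -0.32) or genes of the cell cycle (0 of 26, median 0.23). The remaining lists gave 0 calls as well: mast cell and eosinophil (of 9), cholesterol synthesis (of 23), glucocorticoid response (of 11), squamous epithelium (of 10) and blood (of 8).

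Cd200r2 and Kcnj10, a potassium channel, were well above background on 5 of 5 arrays at 162 µg and on 0 of 4 at 18 µg. They entered the test through groups other than 18 µg, so their difference is a description. Cd200r2 was 1.55-fold higher by the fit, and Kcnj10 had a signal bound of 1.41-fold. The bound sets the mean at 162 µg against, per 18 µg array, the higher of the probe's own signal and the lowest signal well above background. For Cd200r2 it was no smaller than the fitted fold, which is given instead. Neither value covers the spread between mice: over the alternatives the log2 difference went down to 0.525 for Cd200r2 and 0.375 for Kcnj10. Both missed the threshold without the muscle-bearing mouse (adjusted p = 0.0698 and 0.146).

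Falls were few. Egr1, an immediate early transcription factor, was -3.87, -2.60, -3.74 and -3.99 at 162 µg and -2.32, -1.57, -2.29 and -2.14 at 18 µg. The groups did not overlap, and it fell by 1.47 on the log2 scale (SE 0.35, adjusted p = 0.0343). Adm, the vasodilator adrenomedullin, fell by 1.09 (SE 0.26, adjusted p = 0.0369). Arntl, the clock activator also called Bmal1, was 0.01, 0.03, -0.14 and -0.37 against 1.06, 0.64, 0.69 and 0.50, and fell by 0.84 (SE 0.19, adjusted p = 0.026). Of 25 alternatives, Egr1 passed in 13, Adm in 14 and Arntl in 13. Egr1 and Adm were each lost without any 1 of 6 mice and Arntl without any 1 of 4, and without the muscle-bearing one their adjusted p was 0.0698, 0.123 and 0.145. The fourth lower call has no symbol.

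Arntl belongs to a clock list of 15 tested genes, of which 4 rose and 1 fell. Dbp, an output gene of the clock, was 1.68, 1.21, 1.59 and 2.54 at 162 µg and 0.10, 0.35, -0.16 and 0.36 at 18 µg, and rose by 1.59 (SE 0.26, adjusted p = 0.00138). Nr1d2, a repressor of Arntl, rose by 0.99 (adjusted p = 0.00921), Tef by 0.87 (adjusted p = 0.0232) and Bhlhe40 by 0.81 (adjusted p = 0.0151). The hour of tissue collection is not given in the sources used here, and its part was not tested. With median centring or without the muscle-bearing mouse, 1 of the 15 was called: in the latter Nr1d2, Tef and Bhlhe40 had an adjusted p of 0.052, 0.143 and 0.0695, while Dbp kept 0.00584.

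Transcripts of other tissues varied among the mice. The cardiac muscle list had 0 calls of 12 and a median difference of -2.01, with list means of 2.26 to 4.66 at 18 µg and 0.49 to 2.71 at 162 µg. The adipocyte and fatty acid list had 0 calls of 18 (median -1.84), with 1.36 to 4.30 against 0.99 to 1.94. On both lists the highest mouse was replicate 4 at 18 µg (4.66 and 4.30). Without this mouse 190 genes were called, 182 of them higher. The skeletal muscle list had 0 calls of 15 (median -1.69), set by 1 mouse at 5.57 against -0.20 to 0.18 in the other 18 µg mice. Without the mouse at 5.57 that median was -0.02. With the skeletal muscle and squamous list means as covariates in the fit, 231 genes were called, 224 of them higher. The named calls of Adm, Kcnj10, Fcgr3, Tlr7 and Cd86 were lost in it. The part of the cardiac muscle and adipocyte transcripts in the gene differences above was not tested.

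**Figure D3:**
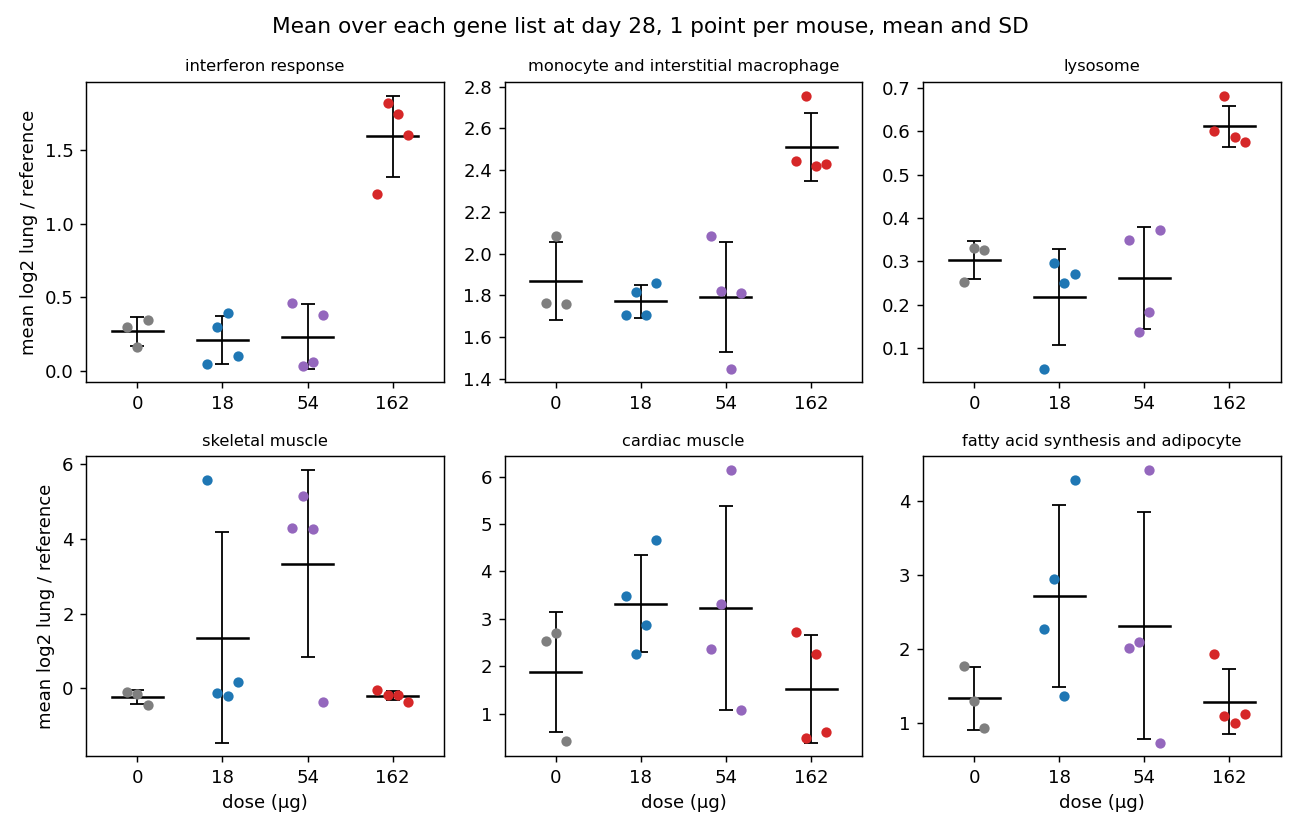
Mean log2 ratio over 6 gene lists (vertical axes, 1 scale per list) at day 28 against dose in µg, 1 point per mouse, with mean and SD. The interferon response list separates 162 µg (1.20 to 1.81) from 18 µg (0.05 to 0.40), while the skeletal muscle list has 1 high mouse at 18 µg (5.57).

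Each of 4 slides held 1 array of each dose, which gave the difference within a slide. For 235 of the 236 called genes the sign was the same on all 4 slides. The slides held the same arrays that gave the calls, and 229 of the 236 genes did not overlap between the groups. The count was thus largely set by the choice of genes and adds no support. Ly6i differed by 3.94 to 5.00, Saa3 by 2.27 to 5.62, Isg15 by 0.95 to 3.12, and the median of the interferon response list by 1.16 to 1.78. Slc26a4 ranged from 1.03, on the slide with the muscle-bearing mouse, to 3.18, and Egr1 from -2.16 to -0.28, the latter on the same slide. With slide as a block in the fit 420 genes were called.

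**Figure D4:**
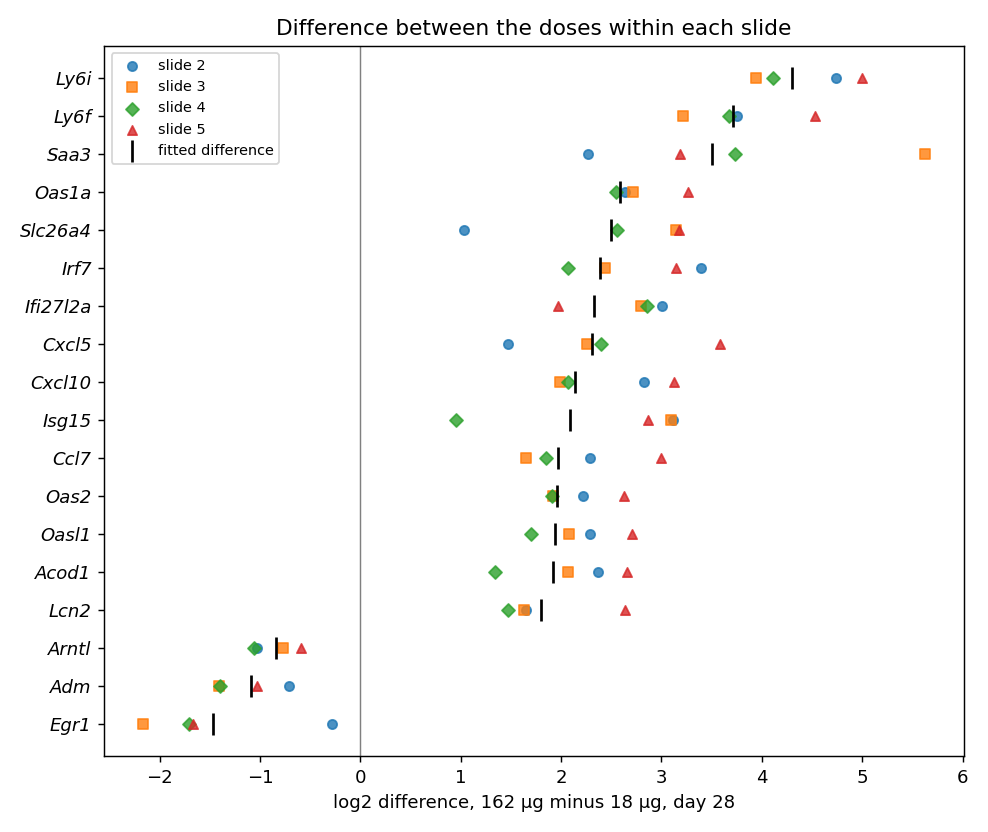
Log2 difference between 162 µg and 18 µg at day 28 within each of 4 slides (symbols) for 18 genes, with the fitted difference as a bar. All symbols of the 15 rising genes lie right of 0 and all symbols of the 3 falling genes left of it. The genes were chosen by their difference over these same arrays.

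Beside the control mice of day 28, 162 µg gave 146 calls (0.628%), 144 of them higher (0.62%). At 18 µg 0 genes were called by limma (0%), 1005 having an unadjusted p under 0.05. These comparisons share mice with the one above, so the values are only set side by side. Ly6i differed from control by 4.46 at 162 µg and by 0.16 at 18 µg, Oas1a by 2.58 and 0.00, Cxcl10 by 2.24 and 0.10, Lcn2 by 2.00 and 0.20, and Saa3 by 4.42 and 0.91. The 4 mice at 54 µg are a further group, and 3 of them carried skeletal muscle RNA (mean log2 Cy5 of 12.41 to 13.54 over the list) and squamous epithelial RNA (12.20 to 13.40), whose part in the means was not tested. For 155 of the 232 rises their mean lay between those of 18 and 162 µg, for 77 at or below 18 µg and for 0 at or above 162 µg. The 232 genes were chosen for being higher at 162 than at 18 µg, which partly sets these counts. The same counts over all genes were not made, so no graded response is read from them.

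The difference between the doses was also compared between day 28 and day 1, where 4 mice at 162 µg and 3 at 18 µg were measured. Replicate 3 of each dose at day 1 carried skeletal muscle RNA (mean log2 Cy5 of 13.76 at 162 µg and 13.83 at 18 µg). The one at 162 µg also carried squamous epithelial RNA (13.29). At day 1 476 genes were called (2.05%), 393 of them higher (1.69%). The test of the difference between the days called 22 genes (0.0946%). Without replicate 3 at 162 µg of day 1 it called 59, without replicate 3 at 18 µg of day 1 15, and without any muscle arrays 42. Saa1, Saa2 and Timp1, an inhibitor of metalloproteinases, separated the doses more at day 1. Saa2 differed by 4.06 at day 1 and 0.39 at day 28 (difference -3.67, SE 0.34, adjusted p = 2.13e-06), Saa1 by 5.18 and 1.64 (adjusted p = 0.00579) and Timp1 by 3.89 and 0.80 (adjusted p = 0.00686). Saa3 differed by 7.51 and 3.51 and Saa4 by 0.53 and 0.15, and for neither was the difference between the days called (adjusted p = 0.0589 and 0.556). When the mouse of conflicting labels was moved to day 1, none of Saa1, Saa2 and Timp1 was called. In a fit of only the groups compared Saa1 and Timp1 were not. That mouse had a Saa2 value of 0.31, against 0.24 to 0.79 in the other 162 µg mice of day 28 and 3.56 to 4.64 in those of day 1.

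Of 15 clock genes 5 differed between the days by the test. The output gene Dbp differed by -1.43 between the doses at day 1 (adjusted p = 0.00522) and by 1.59 at day 28 (difference between the days 3.02, SE 0.38, adjusted p = 0.000456), and it passed in 31 of 31 alternatives. At day 1 Dbp was 2.76 to 3.31 at 18 µg, 1.36 to 1.90 at 162 µg and 0.69 to 1.93 in the controls. There the 162 µg mice lay within the range of the controls and the 18 µg mice above it. The low end of that range was control replicate 4 alone, the other controls standing at 1.84 to 1.93. All day 1 controls carried skeletal muscle RNA (mean log2 Cy5 of 10.70 to 13.47 over the list), whose part was not tested. Arntl had day 1 means of -1.25 at 18 µg, -0.51 at 162 µg and -0.10 in the controls. Control replicate 4 was at 0.64 and the other controls at -0.60 to -0.19. The doses of day 1 were not tested against control here. Nr1d1 (1.75, adjusted p = 0.00189), Tef (1.68, adjusted p = 0.0146), Nr1d2 (1.55, adjusted p = 0.0323) and Arntl (-1.58, adjusted p = 0.0216) also differed between the days, in 30, 27, 16 and 23 of the 31 alternatives. The interferon response list had 3 of 23 genes higher at day 1 (median 0.43) against 20 at day 28, but for 0 of the 23 did the days differ by the test. The acute phase list had 10 of 19 higher at day 1 (median 1.42) against 3 at day 28, with 2 called between the days.

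**Figure D5:**
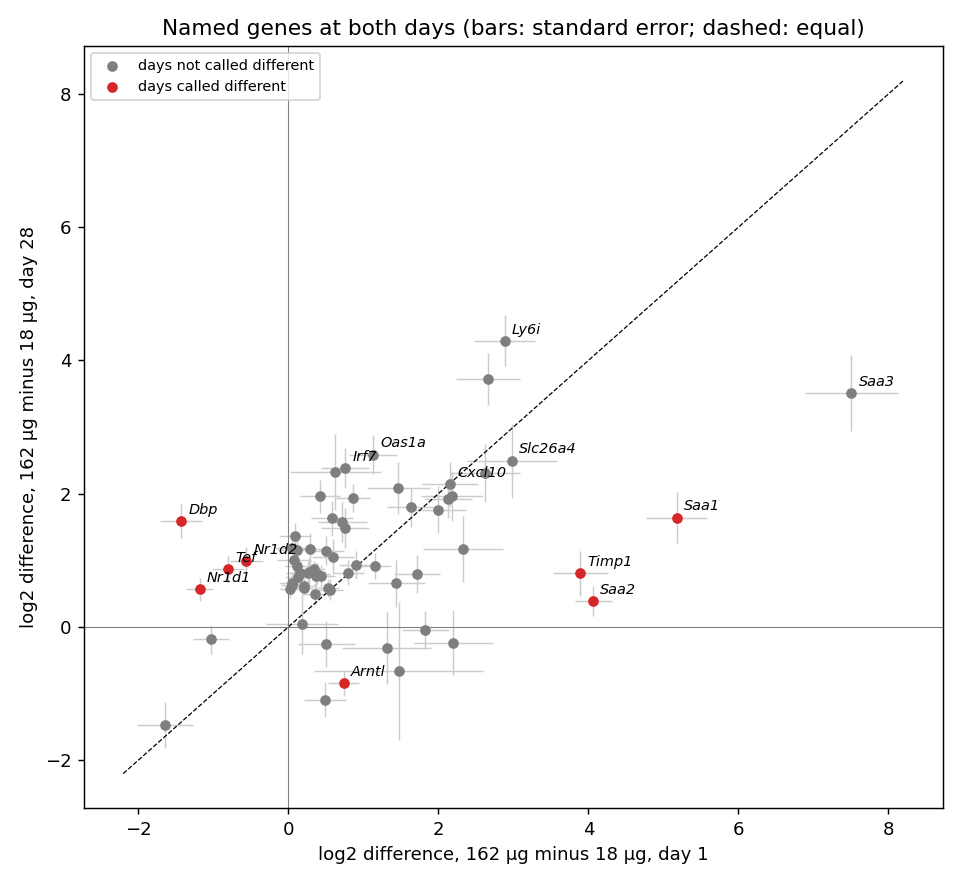
Log2 difference between 162 µg and 18 µg at day 28 (vertical) against that at day 1 (horizontal) for the named genes, with standard errors, equality as a dashed line and genes whose days differ by the test in red. Saa1, Saa2 and Timp1 lie far below the line, and Dbp, Nr1d1, Nr1d2 and Tef lie left of 0 and above it.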

How the data were processed

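Lung RNA of 29 mice was measured on 36 two-colour Agilent arrays. Per the file headers, the authors scanned the arrays with Agilent Feature Extraction 11.0.1.1, and the deposited files give spot and background intensity in both dyes and a log10 ratio. A deposited value table holds log2 values. Across probes its columns gave r = 0.986 to 0.997 with the computed ratios. Its normalization is not given in the sources used here. Dyes were never swapped.

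Ratios were computed with R 4.3.3 and limma 3.58.1 from median signals: normexp background correction with an offset of 50, loess within each array, log2(Cy5/Cy3), the brightest probe per gene. Flagged spots (0.399%) were left out, and limma fits such genes without that value. Probes were named by accession from a GRCm38.p6 table, used for names only: 28026 of 55681 had a symbol. A gene was tested where all arrays of 3 or more mice in some group had it well above background (Cy5), which left 23244. A single model of group means covered 29 mice (21 residual and 2.9 prior degrees of freedom), two-sided, with Benjamini-Hochberg adjustment per comparison. The 2 arrays of a mouse were averaged; arrays with the same sample number and labels were read as 1 mouse. The labels speak of more animals per group than the 3 or 4 found. A p-value sets a difference against the spread between mice within groups, pooled over all 29 mice and not only those compared. The fit was also run on simulated data with independent normal noise per gene. Those data held no slide effects and no correlation between genes, so they cannot check the calls against either.

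Members and gene lists were chosen with earlier results of these data known. Named genes were, by rule, the 15 largest rises, the 8 largest falls, up to 5 rises and 3 falls from background, up to 3 called members per list, 24 fixed genes (Ccl22 did not pass the filter), and up to 3 rises and 3 falls between the days. Some named genes are not reported here. List members outside the rule were named after their values were seen.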

Additional observations from a re-analysis of the deposited data

Results flagged for a closer look

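Among 206 sets of 4 values checked (named genes and list means, at each dose), 15 had a sample far from the other 3 by Dixon's criterion, which chance gives in about 1 in 20 sets. At 162 µg the low value was Acod1 in replicate 4 (-1.98, others -0.97 to -0.87). The high values were Kcnj10 in replicate 2 (1.25, others 0.44 to 0.53), Ccl12 in replicate 2 (1.87, others 0.52 to 0.71), and the means of the monocyte and interstitial macrophage list in replicate 2 (2.76, others 2.42 to 2.45), of the neutrophil list in replicate 1 (1.77, others 1.04 to 1.14) and of the adipocyte list in replicate 1 (1.94, others 0.99 to 1.12).

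At 18 µg replicate 1 was high in Slc26a4 (4.87, others 2.23 to 2.36), in Ccl8 (3.66, others 1.25 to 1.63) and in the skeletal muscle list (5.57, others -0.20 to 0.18), and low in H2-K1 (1.86, others 2.68 to 2.84) and B2m (0.13, others 0.65 to 0.73). Replicate 2 was low in Il2ra (0.27, others 0.70 to 0.74), replicate 3 in Nr1d1 (0.84, others 1.49 to 1.59) and replicate 4 in Saa2 (-0.14, others 0.10 to 0.14). Replicate 4 was high in the cholesterol synthesis list (-0.077, others -0.40 to -0.36).

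The difference between the doses itself differed between day 28 and day 1 by the limma test for Saa2 (-3.67), Saa1 (-3.54), Timp1 (-3.09), Arntl (-1.58), Nr1d2 (1.55), Tef (1.68), Nr1d1 (1.75) and Dbp (3.02), each given as day 28 minus day 1 on the log2 scale.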

How the results depend on the processing

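In 25 alternatives to the fit of 162 against 18 µg, all 236 called genes kept their sign in each. Of the 50 named genes called, 12 were called in every alternative. The fit of only the groups compared lost 35 of the 50. The 236 calls became 157 with median centring, which moved the median of all genes to 0.18, 155 with the scanner software's log ratio, 71 in a fit of only the groups compared, 420 with slide as a block and 154 with the mouse of conflicting labels moved to day 1. Leaving out 1 mouse gave 138 (without replicate 1 at 18 µg) to 307. Without muscle arrays 285 were called, 251 of them higher. For 162 µg against control the 146 calls became 88 with the scanner ratio, 230 in the groups compared, 576 with array weights, 234 without muscle arrays and 65 to 128 with a mouse left out (65, 73 and 78 without a control mouse, 84 without replicate 2 at 162 µg). For 18 µg against control the count stayed 0. For the difference between the days the 22 calls became 8 with median centring, 11 with the scanner ratio, 14 with the value table, 3 in the groups compared, 135 with mouse, 92 with slide and 60 with scan session as a block, 382 with array weights, 4 with the conflicting mouse moved, 42 without muscle arrays, 112 with muscle and squamous covariates, and 8 to 83 with a mouse left out (83 without replicate 3 at 18 µg of day 28, 8 without replicate 4 at 162 µg). The causes were not tested. Arrays read as 1 mouse correlated at -0.03 beyond their group.

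Some genes that were not called changed sign: Ccl17 to 0.18 (median centring), 0.091 (array weights and covariates) and 0.24 (without muscle arrays), Arg1 to 0.12 (without muscle arrays), Ear2 to 0.038 (median centring) and Chil3 to -0.036 (mouse as a block). With a mouse left out Ccl17 ranged from -0.18 to 0.24, Cxcl13 from -1.22 to 0.11, Arg1 from -0.40 to 0.12 and Chil3 from -0.23 to 0.50. No paired analysis was possible because replicate numbers follow accession order and pair no mice. Slide, which held 1 array of each dose, served as the block instead, with the counts above. Signal over background limits Kcnj10, Cd200r2, Saa2 and Mmp12, at background on most 18 µg arrays.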

Other observations

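Gene families, chosen by symbol after their values were seen, give further detail of the 162 µg against 18 µg difference at day 28. Of 8 tested members of the Oas family 6 rose (median 1.61), of 6 Ifit genes 4 (median 1.24) and of 3 Phf11 genes 3 (median 1.08). Of 9 immunity-related GTPases and relatives 4 rose, Igtp, Irgm1, Gm12250 and Gm4951, and of 9 guanylate-binding proteins 2, Gbp3 and Gbp6. Poly-ADP-ribosyltransferases Parp9, Parp10 and Parp14 rose among 11 tested, the ubiquitin ligases Trim12a, Trim21, Trim25, Trim30a and Trim30d among 48, and Slfn2, Slfn4, Slfn8 and Slfn10-ps among 9. Of 15 H2 class I genes 9 rose (median 0.80). Among these was H2-Q10 (0.77), of which another probe, well above background on 5 arrays at 162 µg, gave -0.52. Of 13 cathepsins 4 rose, Ctsa, Ctsc, Ctss and Ctsz (median 0.49), and of 10 Ms4a genes 3, Ms4a6c, Ms4a6d and Ms4a7. Of 13 Ly6 genes 3 rose, Ly6c1, Ly6f and Ly6i (median 0.23). In these families 0 members were called lower. Over all genes tested 0.998% were called higher. Calls without the muscle-bearing mouse were not counted by family. Members of a family share sequence and are not independent.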
